A study of Mus musculus with 24 samples.

Results

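The lipid absorption genes Fabp1, Fabp2, Fabp6, Apoa1, Apoa4, Apob, Mttp, Cd36, Npc1l1 and Mogat2 were examined for binding of Cdx2 in mouse colon organoids. All 10 genes were taken, and a Cdx2 peak was assigned to a gene when its summit lay within the gene body or within 20 kb to either side of it. This gave 50 of the 206283 peaks in 12 lists, and these formed 17 of 61454 sites, a site being a set of peaks that overlapped each other by at least 1 bp. The genes, called members below, are counted against the 21911 protein-coding genes of the annotation, treated in the same way.

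Colon organoids had been started from both ends of the organ, in 3 mice, and were cultured for 4 months before the assay. The full medium (WENR-plus) supplied Wnt3a, EGF, Noggin and R-spondin. WENR-minus cultures spent 2 days in it after plating and then 3 days without the factors. Cultures of proximal and of distal origin in either medium made 4 groups with 3 Cdx2 libraries in each, and peaks had been called in each library against its own input. Per the study's methods the organoid donors were female and 8 weeks old. All 4 groups shared one genotype, heterozygous for the Cre-inducible BrafV600E allele (B6.129P2(Cg)-Braftm1Mmcm/J) and for a tdTomato reporter driven by the CAG promoter at the ROSA locus, and the labels list no Cre treatment. The replicates are labelled as biological and numbered 1 to 3, and no label says whether a number stands for the same mouse in every group. Organoids were measured in bulk, in which fewer cells with bound Cdx2 and less binding per cell cannot be told apart. Peak lists hold no expression, and the identity of the cultures could not be checked from markers.

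Cdx2 is a caudal-type homeobox factor that sets and keeps the intestinal identity of the epithelium. Dietary fat is absorbed by enterocytes, mostly in the small intestine, in a chain of steps. Cd36 in the cell membrane takes up long-chain fatty acids, and Npc1l1 in the brush border takes up cholesterol. Fabp1 and Fabp2 carry fatty acids through the cytoplasm, whereas their relative Fabp6 carries bile acids in the ileum. Mogat2 rebuilds triacylglycerol from monoacylglycerol, Mttp loads it onto Apob, the structural protein of the chylomicron, and Apoa1 and Apoa4 are apolipoproteins of the particles that leave the cell.

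The sequences under the sites that carry most of the results are given here, each 5′ to 3′ on the strand of its gene, with capitals for the letters of the Cdx2 motif (the word TTTATGA, the word TTTATGG, the word TTTATTA or the word TTTATTG, on either strand). The first pair are the RefSeq promoters (GRCm38) of Fabp2, which had a peak, and of its close relative Fabp1, which had motif letters and no peak. The others are windows of 101 bp around a summit (mm10). The window at Fabp2 −10.4 kb is shown for the strongest proximal and for a distal summit, because these summits did not coincide.
Fabp2 promoter, chr3:122894822-122895121, plus strand: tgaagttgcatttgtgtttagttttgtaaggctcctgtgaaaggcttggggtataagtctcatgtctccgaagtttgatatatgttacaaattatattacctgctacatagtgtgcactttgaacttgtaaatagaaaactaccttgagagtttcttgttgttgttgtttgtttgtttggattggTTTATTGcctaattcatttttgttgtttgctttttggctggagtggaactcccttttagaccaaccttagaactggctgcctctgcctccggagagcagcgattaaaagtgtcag
Fabp1 promoter, chr6:71199629-71199928, plus strand: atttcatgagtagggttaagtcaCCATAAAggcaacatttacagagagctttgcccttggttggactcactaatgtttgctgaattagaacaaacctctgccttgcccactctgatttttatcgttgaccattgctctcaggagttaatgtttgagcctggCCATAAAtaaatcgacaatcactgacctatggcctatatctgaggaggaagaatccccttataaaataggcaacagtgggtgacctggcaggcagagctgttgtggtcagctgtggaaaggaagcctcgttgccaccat
Fabp2 −10.4 kb, proximal summit, chr3:122884638-122884738, plus strand: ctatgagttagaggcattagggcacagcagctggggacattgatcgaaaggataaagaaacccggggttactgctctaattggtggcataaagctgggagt
Fabp2 −10.4 kb, distal summit, chr3:122884429-122884529, plus strand: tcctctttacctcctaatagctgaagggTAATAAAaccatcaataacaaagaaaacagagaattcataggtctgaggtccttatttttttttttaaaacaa
Fabp1 −14.6 kb, chr6:71185153-71185253, plus strand: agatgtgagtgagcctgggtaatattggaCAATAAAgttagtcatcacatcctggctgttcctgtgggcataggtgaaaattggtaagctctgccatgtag
Cd36 +17.4 kb, chr5:17871283-17871383, minus strand: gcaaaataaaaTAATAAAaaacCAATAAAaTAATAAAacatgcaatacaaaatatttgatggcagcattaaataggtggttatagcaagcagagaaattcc
Mttp −2.3 kb, chr3:138133640-138133740, minus strand: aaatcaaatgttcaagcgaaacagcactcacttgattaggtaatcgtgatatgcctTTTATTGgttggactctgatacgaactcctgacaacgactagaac

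Cdx2 peaks were found at 6 of the 10 genes, and the calls were concentrated at Fabp2. Fabp2 held 7 sites and 31 of the 50 peaks, in 10 of the 12 libraries. Cd36 had 4 sites, Fabp1 and Npc1l1 had 2 each, and Mttp and Mogat2 had 1 each. No library had a peak at Fabp6, Apoa1, Apoa4 or Apob, and the windows of the neighbouring genes Apoa1 and Apoa4 overlap. The bile acid carrier and the 3 apolipoproteins were thus the members with no call, and 33.6% of all protein-coding genes likewise had none (36.1% of the 18163 genes whose windows were within the members' range of 41.887 to 147.112 kb). A gene had at least 7 sites in 6.35% of all cases and in 2.46% of the genes in that range.

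The peaks were mostly far from start sites and of middling strength. Of the 17 sites 13 were intronic, 4 intergenic and 0 exonic, and 2 lay within 3 kb of an annotated start of the gene. An intron of any annotated gene counted. The 13 thus include the 7 Fabp2 sites, the promoter site among them, and the Mogat2 site, all in introns of antisense genes. These placements were not set against those of all regions. Fold enrichment over input ran from 3.76 to 9.997. Placed within the list of its own library, a member peak had a median percentile of 48.2 (range 7.94 to 88.9), and 0 of the 50 were above the 90th percentile. None of the sites was called in all 12 libraries, where 3.38% of all regions were, and 6 were called in 1 library, against 42.2% of all regions. These 6 came from the longest lists, with 4 in proximal WENR-plus replicate 2 and 2 in proximal WENR-plus replicate 1.

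**Figure D1:**
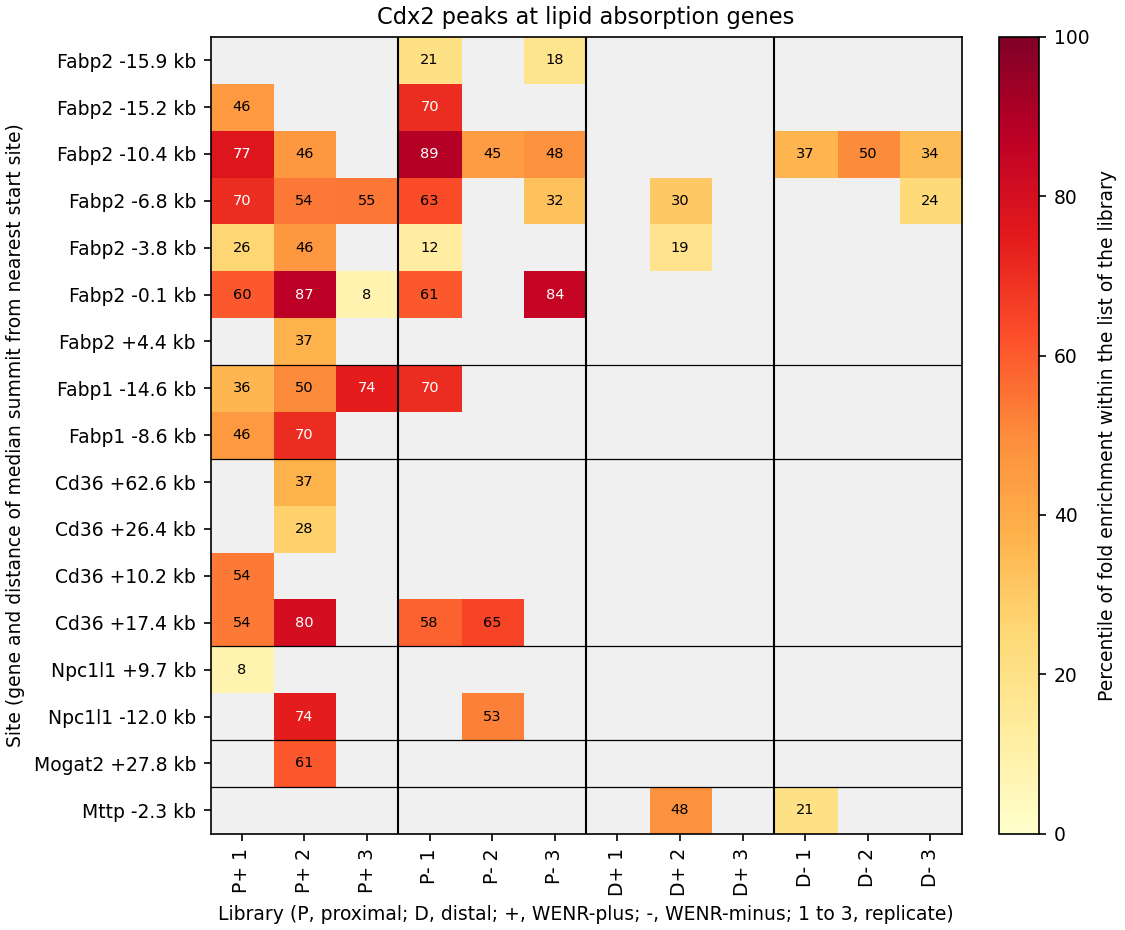
The 17 sites (rows) in the 12 libraries (columns), with the number and colour in a cell giving the percentile of the peak's fold within the list of that library and grey cells having no peak. The highest percentile was 88.9, at Fabp2 −10.4 kb in proximal WENR-minus replicate 1, and 4 rows have a peak in a distal library.

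The first question of the design was whether binding differed between proximal and distal organoids. At these genes, 13 of the 17 sites were called in proximal libraries only, 1 in distal libraries only and 3 in both. Among the 11 sites called in at least 2 libraries, 7 were proximal only and 1 was distal only. Of all 35518 such regions 34.4% were proximal only and 2.04% distal only. Seen by gene, Fabp1, Cd36, Npc1l1 and Mogat2 had proximal peaks only, as did 21.2% of all protein-coding genes, and Mttp had distal peaks only, as did 1.78%.

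The 3 longest lists had the 3 highest numbers of member sites. In proximal WENR-plus libraries 10, 12 and 3 sites were called (8.33 ± 4.73, SD, n = 3), and in proximal WENR-minus libraries 8, 3 and 4 (5.00 ± 2.65). Distal WENR-plus libraries had 0, 3 and 0 (1.00 ± 1.73) and distal WENR-minus libraries 2, 1 and 2 (1.67 ± 0.577). The lowest proximal and the highest distal count were equal, at 3. Proximal lists held 11409 to 42192 peaks and distal lists 5608 to 21040.

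Scaled to list length, the colon sites overlapped. Proximal libraries had 1.88 to 3.51 member peaks per 10000 peaks and distal libraries 0 to 3.80. Pooled over libraries the rates were 2.87 and 1.42, and proximal lists held 82.0% of the member peaks and 69.4% of all peaks. Distal WENR-plus replicate 2 and proximal WENR-plus replicate 3 had lists of nearly the same length (13371 and 13592 peaks), and each had 3 member sites. Distal WENR-minus replicate 1, with 21040 peaks, had 2 sites. Proximal WENR-minus replicates 2 and 3, with shorter lists of 15940 and 11409 peaks, had 3 and 4. When every list was reduced to its 5608 peaks of highest −log10 p, 3 sites with 6 peaks were left, at Fabp1 and Fabp2. No library had more than 1 of these sites. The difference between proximal and distal means then was 0.333 sites in WENR-plus and 0 in WENR-minus, down from 7.33 and 3.33. How much of the difference in calls stems from the depth of the libraries was not tested. Without replicate 1 of every group the difference in WENR-minus was 1.5 sites.

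**Figure D2:**
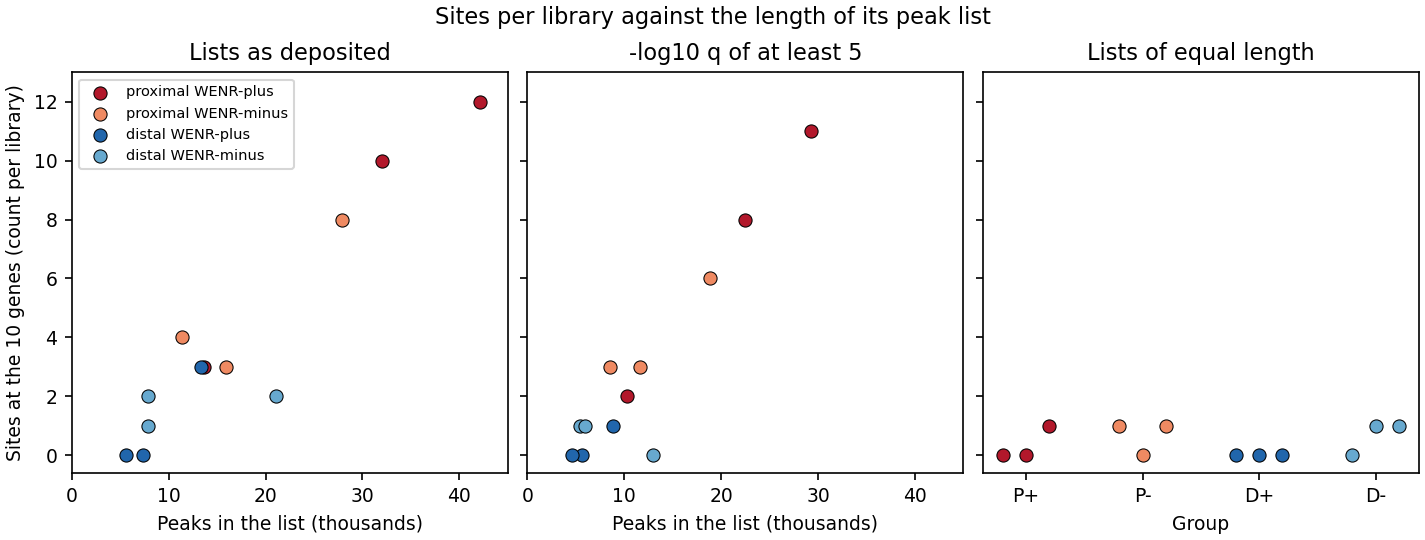
Member sites per library (vertical axis) against the number of peaks in its list in units of 1000 (horizontal axis, left and middle panels) or by group (right panel), each point being 1 library. Counts reach 12 in the lists as deposited and 11 among peaks with a −log10 q of at least 5, and no count is above 1 in lists of equal length.

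Among single sites, 1 of the 11 reached an unadjusted p under 0.05 for colon site, the Fabp2 promoter. Of the 35518 regions called in at least 2 libraries, 4.96% did so in the proximal direction and 0.282% in the distal direction. Shares of all regions in this paragraph are of these 35518. By Fisher's exact test with Benjamini-Hochberg adjustment over 35518 regions no member passed 0.05, and 0% of all regions passed (lowest adjusted p = 0.114). For medium, 0 members and 0% of all regions passed after adjustment (lowest adjusted p = 1), and 0 members had an unadjusted p under 0.05, against 0.127% of all regions called more often in WENR-plus and 0.0619% called more often in WENR-minus.

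Fabp2 lies on chromosome 3 (122895072 to 122899506, plus strand, mm10), within the span of 4933405D12Rik, a gene annotated as antisense on the other strand. All 7 of its sites fell in introns of that antisense gene, and 6 of them lay upstream of Fabp2. The gene had a peak in all 6 proximal libraries, as did 19.9% of protein-coding genes, and in 4 of the 6 distal libraries, namely all 3 in WENR-minus and 1 in WENR-plus. The distal WENR-plus libraries without a peak were replicates 1 and 3, whose lists (7378 and 5608 peaks) were shorter than all others.

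The Fabp2 promoter site (chr3:122894765-122895331, within 3 kb of the start) was called in proximal libraries only. Its fold was 5.70, 8.78 and 4.31 in proximal WENR-plus replicates 1, 2 and 3. In proximal WENR-minus it was 5.38 in replicate 1 and 9.997 in replicate 3, with no peak in replicate 2, and none of the distal libraries had one. The strength varied widely among the 5 libraries, with percentiles from 8.23 in proximal WENR-plus replicate 3 to 87.3 in proximal WENR-plus replicate 2. With 5 of 6 proximal against 0 of 6 distal libraries, the two-sided Fisher's exact test gave p = 0.0152 (adjusted p = 0.289). Without replicate 1 or without replicate 3 of every group, 3 of 4 proximal and 0 of 4 distal libraries had the peak, and Fisher's exact test gave p = 0.143. Without replicate 2, which drops the proximal library that lacks the peak, it was 4 of 4 and 0 of 4 (p = 0.0286, Fisher's exact test). A pattern of at least 5 proximal and 0 distal libraries was seen in 3.76% of regions called in at least 2 libraries. It was seen at the promoters of 0.625% of all genes.

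The limits of the lists bear on that pattern. In the 7 lists without the promoter peak, 29.0% to 59.7% of the called peaks had a fold below the median fold of the site, 5.70. That median comes only from libraries with the peak, and fold is made against the input and depth of its own library. Whether the site could have been called in these lists was not tested. Among peaks with a −log10 q of at least 5 the site was left in 4 proximal and 0 distal libraries. In lists of equal length it was left in proximal WENR-minus replicate 3 only.

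Summits at the promoter stood 32 to 118 bp upstream of the start. The RefSeq promoter of Fabp2 holds the motif letters once, with the first base 65 bp upstream of the start, and 4 of the 5 summits were within 50 bp of them. The fifth, in proximal WENR-plus replicate 2, was 56 bp from the motif centre.

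The site called in most libraries was Fabp2 −10.4 kb (chr3:122884275-122885105), with peaks in 8. In proximal WENR-minus its fold was 9.40, 5.66 and 5.92 in replicates 1 to 3, and in distal WENR-minus it was 4.84, 5.92 and 5.24. In WENR-plus it was called in proximal replicates 1 (6.97) and 2 (5.02), and in 0 distal libraries. The site was thus present in all 6 WENR-minus and in 2 of 6 WENR-plus libraries (Fisher's exact test, p = 0.0606, adjusted p = 1). Without proximal WENR-plus replicate 2, the longest list, it was present in 1 of 5 WENR-plus libraries (p = 0.0152, adjusted p = 1, Fisher's exact test). That library was left out after seeing the data and is 1 of the 2 WENR-plus libraries with the peak. Leaving it out removes a call that goes against the pattern, so the lower p adds no support. A pattern of all 6 WENR-minus and at most 2 WENR-plus libraries was picked after the calls were seen. It was held by 0.0957% of regions called in at least 2 libraries. Of the same regions 0.709% were called in all 3 distal WENR-minus and 0 distal WENR-plus libraries. The distal WENR-minus lists held 21040, 7895 and 7904 peaks and the distal WENR-plus lists 7378, 13371 and 5608. Distal WENR-plus replicate 2, without the peak, had a longer list than distal WENR-minus replicates 2 and 3. The lists of distal WENR-plus replicates 1 and 3 were shorter than all others. The part of list length in this pattern was not tested. In lists of equal length the site was left in 3 libraries, all WENR-minus, of which 1 was proximal and 2 were distal.

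It was the only member site with a peak in all 6 libraries of any comparison, so its fold could be compared in WENR-minus. After quantile normalization the log2 fold was higher in proximal libraries by 0.11 ± 0.23 (SE), which limma did not separate from 0 (adjusted p = 0.848). In that comparison 2.09% of 3305 regions passed an adjusted p of 0.05.

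Within this site the summits of proximal and distal peaks fell at different positions. In distal WENR-minus replicates 1, 2 and 3 the summits lay 10573, 10593 and 10573 bp upstream of the start, 19 to 39 bp from the centre of the one set of Cdx2 motif letters in the merged region. Replicate 3 had another peak in the site, with its summit 594 bp from those letters. In the 5 proximal libraries the summits lay 10266 to 10522 bp upstream and 90 to 346 bp from the letters, and 0 of 5 were within 50 bp. All proximal summits were thus closer to the gene than the distal summits at the letters, while 4 of the 5 proximal peaks still covered the letters in part of their width. This arrangement was noticed in the data and was not tested.

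**Figure D3:**
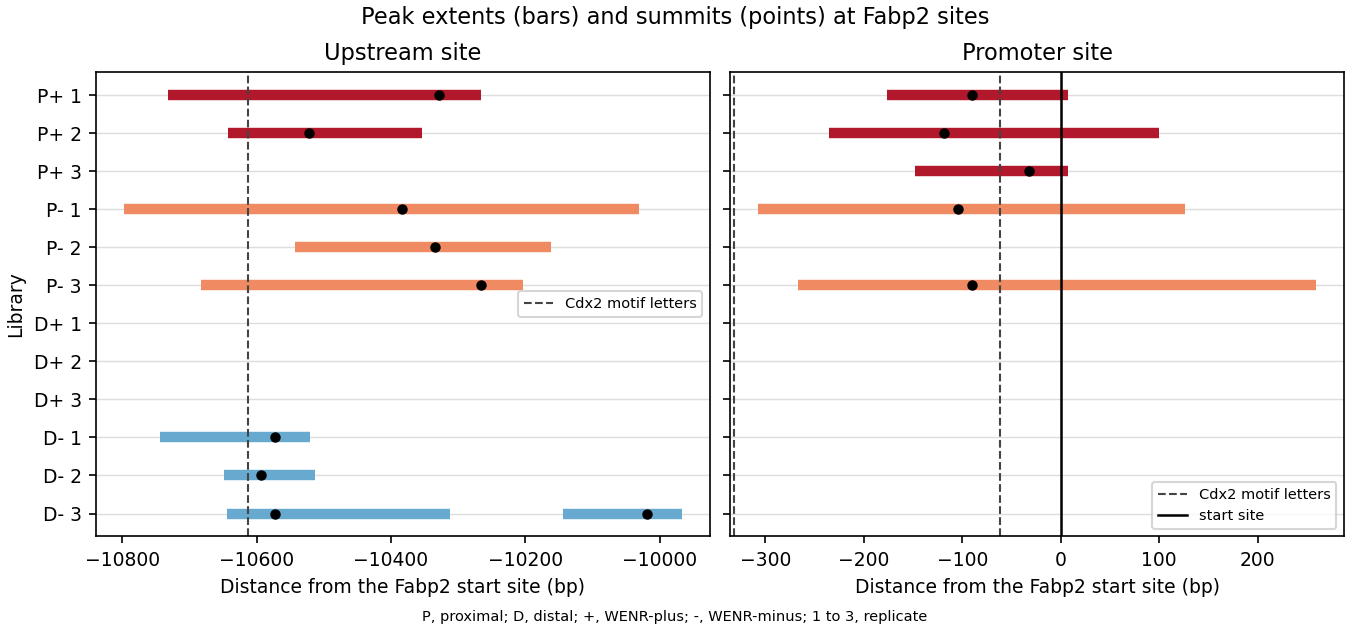
Extent (bars, coloured by group) and summit (points) of each peak at Fabp2 −10.4 kb (left) and at the Fabp2 promoter (right), by distance from the start site in bp, with dashed lines at the centres of Cdx2 motif letters. On the left, 3 distal summits lie 19 to 39 bp from the letters and the proximal summits 90 to 346 bp from them, and on the right all 5 peaks are proximal.

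The other Fabp2 sites were called in 1 to 7 libraries. At −6.8 kb (chr3:122887618-122888877) there was a peak in 7 libraries, the 3 proximal WENR-plus libraries, proximal WENR-minus replicates 1 and 3, distal WENR-plus replicate 2 and distal WENR-minus replicate 3. The strongest peak there had a fold of 5.18 to 6.65 in each of the 5 proximal libraries, and the folds in the distal libraries, 5.33 and 4.89, overlapped with these. Among peaks with a −log10 q of at least 5 this site was left in the 5 proximal libraries and in 0 distal ones. At −3.8 kb there were peaks in 4 libraries, 3 of them proximal, with folds of 3.76 to 5.02. The sites at −15.2 and −15.9 kb were called in 2 proximal libraries each, and the site at +4.4 kb in proximal WENR-plus replicate 2 only, with its summit just past the end of the gene.

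**Figure D4:**
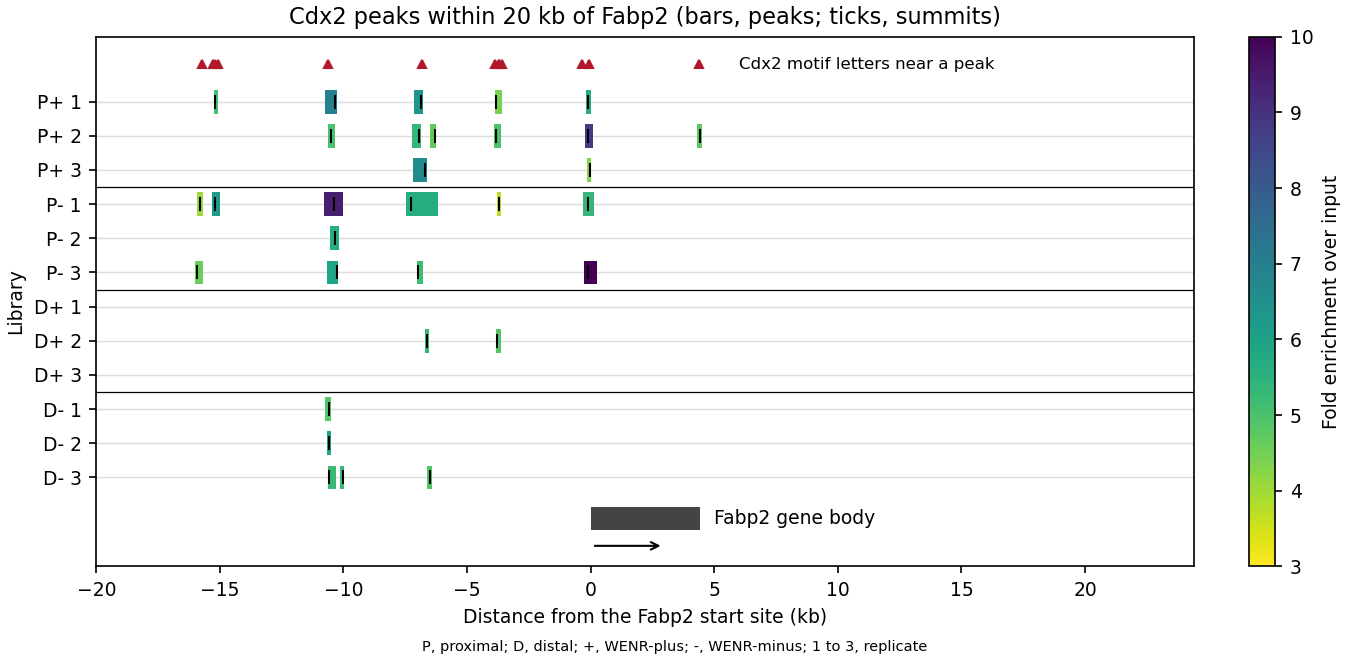
Cdx2 peaks in the window of Fabp2, by distance from the start site in kb (horizontal axis) and by library (vertical axis), with bars giving the extent of peaks, colour the fold over input, black ticks the summits and triangles the Cdx2 motif letters in or within 100 bp of a site. The 31 peaks form 7 sites, 6 of them upstream of the gene, and the distal libraries have peaks at 3 of them.

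Fabp1, on chromosome 6 (71199827 to 71205023, plus strand), had peaks upstream and none at its promoter. The intergenic site at −14.6 kb (chr6:71185011-71185477) had folds of 4.75, 5.14 and 8.61 in proximal WENR-plus replicates 1, 2 and 3 and of 6.18 in proximal WENR-minus replicate 1. It was thus called in 4 of 6 proximal and 0 of 6 distal libraries (p = 0.0606, adjusted p = 0.582, Fisher's exact test). All 3 proximal WENR-plus and 0 distal WENR-plus libraries had it, as was the case for 8.12% of regions called in at least 2 libraries. Another site, at −8.6 kb, was called in proximal WENR-plus replicates 1 (fold 5.07) and 2 (6.27). Motif letters were within 50 bp of 3 of the 4 summits at −14.6 kb and of 0 of 2 at −8.6 kb. The Fabp1 promoter holds the letters at 2 places, with first bases 227 and 89 bp upstream of the start, and 0 libraries had a peak within 3 kb of it.

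Cd36, on chromosome 5 (17781690 to 17888801, minus strand), is the longest of the genes. Its leading site, +17.4 kb (chr5:17871048-17871534), lies in an intron, 17.471 kb downstream of the first annotated start and far upstream of the start that RefSeq uses. The folds were 5.39 and 7.35 in proximal WENR-plus replicates 1 and 2 and 5.37 and 6.72 in proximal WENR-minus replicates 1 and 2. Replicate 3 of both media and all distal libraries had no peak. With 4 of 6 proximal against 0 of 6 distal libraries, the difference did not pass the test (p = 0.0606, adjusted p = 0.582, Fisher's exact test). Of regions called in at least 2 libraries, 7.36% were called in at least 4 proximal and 0 distal libraries. The 4 summits lay within 25 bp of each other, all within 50 bp of motif letters, and the window around the strongest holds these letters 3 times in a stretch rich in A. The other 3 sites were each in 1 library, at +10.2, +26.4 and +62.6 kb from the nearest start, the last of these past the end of the gene.

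Mttp was the member with peaks in distal organoids only. Its site (chr3:138133615-138133766) was called in distal WENR-plus replicate 2 with a fold of 6.17 and in distal WENR-minus replicate 1 with a fold of 4.33. These were the libraries with the longest distal lists, and the percentiles were 48.4 and 20.6. The site is 2288 bp upstream of an internal annotated start, and 11.303 kb inside the gene when counted from its first start, so it is intronic. Both summits were within 50 bp of motif letters. With 2 of 6 against 0 of 6 libraries, Fisher's exact test gave p = 0.455 (adjusted p = 0.889).

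Npc1l1 and Mogat2 had few calls. The intergenic site 12.0 kb upstream of Npc1l1 was called in replicate 2 of both proximal groups, with folds of 6.58 in WENR-plus and 6.01 in WENR-minus. An intronic site at +9.7 kb was in proximal WENR-plus replicate 1 only, at a fold of 3.80 and the lowest percentile of all member peaks. The single Mogat2 site, 27.8 kb downstream of the start and past the end of the gene, had a fold of 5.64 in proximal WENR-plus replicate 2 and lies in an intron of Gm45012, an antisense gene.

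Cdx2 motif letters were found at about as large a share of these sites as of all regions. Within 50 bp of the strongest summit, 8 of 17 sites (47.1%, 95% Wilson interval 26.2 to 69.0) had the letters, against 57.1% of all regions and 11.7% of windows placed 1000 bp away. By peak, 13 of 31 summits at Fabp2 and 12 of 19 at the other genes were within 50 bp of them. Among the 9 members with a RefSeq promoter the letters were found in 4 (Fabp1, Fabp2, Fabp6 and Cd36), and in 14.4% of 32851 promoters. One of these 4 promoters, that of Fabp2, had a peak. The Fabp6 promoter had the letters 112 bp upstream of the start and no peak in any library. Of the motifs of other intestinal factors, GATA letters (AGATAA or TGATAA) were at 1 of 17 sites, against 18.3% of all regions. The 95% Wilson interval, 1.05 to 27.0, holds that share. Within 100 bp GATA letters were at 5 of 17 sites (29.4%), against 33.8% of all regions. Letters for HNF4 (CAAAGTCCA) were at 0 of 17, against 0.430% of all regions, a share too low for 17 sites to show a difference. Both strands were searched for each motif.

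The windows of 20 kb set which peaks were counted. The site nearest to the edge of a window was Fabp2 −15.9 kb, 4.124 kb inside it. Just outside, the nearest regions were 22.8 kb from Npc1l1 (called in 6 libraries), 23.5 kb from Apob (1 library), 25.5 kb from Fabp2 (6 libraries) and 25.6 kb from Mogat2 (2 libraries). The nearest regions to Apoa4, Apoa1 and Fabp6 were 39.1, 43.9 and 44.0 kb away.

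Of 30 other genes of lipid and bile acid handling in enterocytes, 23 had a site and 7 had none. Acsl3, Fabp5, Slc10a2 and Slc51a, which serve fatty acid activation and transport and bile acid transport, had a peak in all 12 libraries, as did 9.05% of all protein-coding genes and 0 of the 10 members. A peak within 3 kb of a start was found in at least 1 library for 8 of the 30, against 22.7% of all genes, and in all 12 libraries for 0. The neighbouring sterol exporter genes Abcg5 and Abcg8, whose windows overlap, had distal peaks only, and 4 genes had proximal peaks only. The median number of libraries with a peak was 1.5 for the members, 3.5 for these 30 genes and 2 for all protein-coding genes.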

How the data were processed

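Cdx2 binding was measured by ChIPmentation, in which a transposase adds adapters to chromatin on the antibody beads, in 12 libraries of 4 groups. Another 12 input libraries entered only as controls of the authors' peak calls. Per the methods of the study, reads were trimmed by the authors, aligned to mm10 and freed of duplicates, and peaks were called in each library (q 0.01) against the matched input. The submitters' processing notes name Trimmomatic 0.39, Bowtie2 2.4.5, SAMtools 1.13 and MACS2 2.2.7.1, and the study's supplement names other versions of Bowtie2, SAMtools and MACS2. The deposited lists give a score per peak, the fold enrichment at the summit as a ratio of pileup to local background, and the −log10 p and −log10 q made by the authors. The peak lists carry no read totals. Totals are stated in the supplement but were not taken from it, and list length is given in their place. Fold is made against the input and depth of its own library, so it was ranked within each list (percentile, by mid-rank).

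Autosomal, X and Y peaks were kept, with GENCODE vM21 for genes and GRCm38, the same assembly, for sequence. 0 peaks passed a chromosome end. Summits within a gene body or 20 kb of it were assigned to the gene, and peaks overlapping by at least 1 bp were merged into regions. The members, the list of 30 other genes and the motifs were chosen with earlier results of these data known. All 10 members were described, in full for the site called in most libraries and for sites within 3 kb of a start, and otherwise by range and count. The summit positions at Fabp2 −10.4 kb and the exact patterns of libraries given with their shares were picked after the values were seen. RefSeq promoters (GRCm38) matched 9 of the 10 members. Names of sites give the distance from the nearest annotated start.

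Occupancy was compared by two-sided Fisher's exact tests, 6 libraries against 6, over regions called in at least 2 libraries, with Benjamini-Hochberg adjustment. These tests treat both media of one culture as independent. Log2 fold was compared with limma 3.58.1 (R 4.3.3) over regions called in all 6 libraries. The tests were checked on simulated data, in which all libraries had equal call rates and independent noise. These checks do not cover unequal list lengths or libraries that share a replicate number. Shares carry a 95% interval by the method of Wilson, which reflects counting error alone. Alternatives were lists of equal length, −log10 q of at least 5, summits joined within 250 bp, windows of 5 and 50 kb, a motif distance of 100 bp, percentiles of −log10 p, other scalings of fold, a replicate block and leaving out libraries.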

Additional observations from a re-analysis of the deposited data

How the results depend on the processing

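The number of sites and the difference in sites per library depended on list length and window. Against 17 sites at 6 genes, lists of equal length gave 3 sites at 2 genes, a window of 5 kb 8 sites and a window of 50 kb 33 sites at 10 genes. The difference between proximal and distal means in WENR-plus was 7.33 sites per library, 0.333 in lists of equal length, 3 in the window of 5 kb and 13.3 in that of 50 kb. In WENR-minus it was 3.33, 0, 1.33 and 5.33 in turn. The difference between WENR-plus and WENR-minus was 3.33 sites in proximal organoids and −0.333 in lists of equal length, and in distal organoids it was −0.667 sites and 0.333 in the window of 5 kb. In proximal organoids the difference between media was 1.5 sites without proximal WENR-plus replicate 2 and 0.5 without replicate 2 of every group, and the difference between proximal and distal means in WENR-minus was 1.5 without replicate 1. Shorter lists and other windows hold fewer or more peaks by construction. In lists of equal length the 6 member peaks left had a median percentile of 62.1, still ranked within the deposited lists. Keeping only peaks of highest −log10 p favours high percentiles by construction. The share of sites with motif letters was 76.5% within 100 bp, and 69.2% without proximal WENR-plus replicate 2, which was chosen after seeing the data. Leaving out 1 replicate number from every group gave a difference between media in distal organoids of −2 to 0 sites, a share with motif letters of 40% to 66.7%, and sites in all proximal and 0 distal libraries of 0 to 1, against 0. That site was the Fabp2 promoter without replicate 2 and Cd36 +17.4 kb without replicate 3. Of 110 values under alternatives 88 stayed near the main value and did not reverse in sign, a fall to 0 not being counted as a reversal. The bound was the spread between libraries, 1.5 times for counts, and the Wilson interval for the share with motif letters. Many of the 88 are counts of 0 that stayed 0, such as members past an adjusted p. These could hardly have changed, so the tally says little about how firm the other results are. No member passed an adjusted p of 0.05 in any fit of occupancy or fold.

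The groups share replicate numbers. Deviations of log2 fold from group means correlated between same-numbered libraries at 0.00807 to 0.557 (14 of 18 pairs over 0.1), and 6 of 12 libraries correlated best with their own number. The labels do not tie a number to a mouse, so the numbers were not taken to pair the libraries. With a replicate block, added for occupancy after seeing the data, 0 members passed in either test, as in the main tests, and the Fabp2 promoter had p = 0.0278 (adjusted p = 0.530, exact test within replicate numbers). Limma with the block gave 0 member sites, and 132 of 3305 regions against 69 between proximal and distal organoids in WENR-minus. There median centring gave 118 regions, and leaving out 1 replicate number gave 0 to 16. Fold could not be fitted for a member at a −log10 q of at least 5 or over all 12 libraries, since no member site was called in every library needed. With 6 libraries against 6 the smallest p of the occupancy test is 0.00216, and none of 35518 regions passed after adjustment.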
